A study of Homo sapiens with 12 samples.

Results

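A set of genes that encode plasma membrane carriers of amino acids, SLC7A5, SLC7A11, SLC3A2, SLC7A1, SLC1A5, SLC1A4, SLC38A1, SLC38A2, SLC6A9 and SLC43A1, was followed in HCT116 cells, a human colorectal cancer line, after inhibition of MEK1/2. The 10 genes, and the gene lists set beside them, were chosen by symbol with earlier results of these data known. Their counts and medians beside those of other genes are therefore descriptions and no independent support. The transporter genes are 10 of the 15798 genes in the count table and 10 of the 10502 genes that were tested, which had a mean of at least 10 counts in the input and in the footprint libraries. The cells received 100 nM trametinib, an inhibitor of the kinases MEK1 and MEK2 that activate ERK, or the solvent DMSO for 24 h, and all dishes were kept in McCoy's medium with fetal bovine serum and Glutamax. Translating ribosomes were fixed on their mRNAs with cycloheximide before lysis in both treatments. Each treatment had 3 input and 3 footprint libraries, which makes 4 groups and 12 libraries. Input is fragmented RNA of the cytoplasmic lysate, and footprints are the stretches of mRNA that a ribosome shielded from RNase I. All libraries come from 1 cell line, so that nothing here speaks for other colorectal cancer cells.

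Amino acids cross the plasma membrane through carriers of several families that differ in substrates and in driving force. SLC3A2 is a heavy chain with no transport activity of its own that brings light chains such as SLC7A5 and SLC7A11 to the cell surface. SLC1A5, SLC1A4, SLC38A1 and SLC38A2 move small neutral amino acids with sodium, SLC7A1 carries the cationic ones, SLC6A9 carries glycine, and SLC43A1 is a facilitator for large neutral amino acids. Many of these genes are known targets of ATF4, the transcription factor of the integrated stress response, which binds a composite DNA element. In many tumors SLC7A5 and SLC7A11 are abundant and supply leucine and cystine.

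The start regions of the transporter genes are shown because these genes moved together, as described further down. RefSeq promoters on GRCh38 (250 bases before to 50 bases after a start site) were found for 9 of the 10 genes. The letters TGATGNAA, written here for the ATF4 element, were searched on both strands. They occurred in at least 1 promoter of 5 of these 9 genes, against 4.46% of the 27305 genes and 3.62% of the 35116 promoters in the table. A gene can have several promoters, which raises its share of matches. SLC3A2 and SLC1A5 had 3 each, SLC1A4 and SLC38A1 had 2 each and SLC7A1 had 1. The shares, here and for the elements below, are over all genes with promoters and not the tested ones alone. A match is a description of the sequence and no evidence of binding. The 30-base windows around the matches, with the matched letters in capitals and read 5′ to 3′ on the strand of the gene, were as follows.
SLC3A2: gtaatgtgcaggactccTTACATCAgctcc
SLC7A1: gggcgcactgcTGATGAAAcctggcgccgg
SLC1A5: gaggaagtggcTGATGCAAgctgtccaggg
SLC1A4: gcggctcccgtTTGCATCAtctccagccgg
SLC38A1: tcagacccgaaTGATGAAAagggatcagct

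In SLC3A2 (chr11:62881719-62881748, plus strand) and in SLC1A4 (chr2:64989381-64989410, plus strand) the match lay on the opposite strand. The SLC3A2 match began 38 bases downstream of a start site and the SLC1A4 match 7 bases upstream of one, both within annotated exons of some transcript. The SLC7A1 match (chr13:29595663-29595692, minus strand) began 8 bases downstream of the start site, in an exon. The SLC1A5 match (chr19:46784893-46784922, minus strand) lay 97 bases upstream of an alternative start site, in an exon of other transcripts. The SLC38A1 match (chr12:46266502-46266531, minus strand) lay 4 bases upstream of a start site, outside annotated exons. An E-box, CACGTG, occurred in 3 of the 9 genes, namely SLC7A5, SLC1A5 and SLC43A1, against 8.77% of genes. The letters TGACNNNGC of an antioxidant element occurred in 4, SLC7A5, SLC3A2, SLC7A1 and SLC1A5, against 16.1%, and TGANTCA of AP-1 in 2, SLC3A2 and SLC38A1, against 9.37%. In SLC3A2 the AP-1 and antioxidant matches overlapped.

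Input was sequenced less deeply, with library totals of 2276693 to 2845568 counts in reading frames against 10127477 to 19181588 for footprints. The standard error of the log2 change was nevertheless larger in footprints than in input for 9 of the 10 genes, all but SLC1A4. The markers KRT8, KRT18, KRT19, EPCAM and CDH1 of colorectal epithelium were present in every library, CDX2 was low at group means of 11.1 to 15.2 CPM (counts scaled to a common library size), and VIL1 had at most 2 counts in any library. Among markers of other cell types, PTPRC, PECAM1 and COL1A2 had at most 3 counts in any library. COL1A1 and ACTA2 were present at low levels, with group means of 6.70 to 11.3 and 5.36 to 15.2 CPM. Of the 14 ERK output genes, which serve to check the treatment labels, 14 were lower with trametinib in input and in footprints. Of all tested genes, 16.8% were lower in input and 25.3% in footprints. The median log2 change of the 14 genes was -4.07 in input and -4.27 in footprints. The changes largest in size were those of DUSP6, SPRY4, ETV5 and EPHA2 at -8.25, -7.11, -6.73 and -6.17 in footprints. With footprints scaled by library totals, 13 of the 14 were called lower, beside 1937 of 10502 tested genes.

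One DMSO dish stood apart for these genes. An input and a footprint library that share treatment and number are called a dish here, since the study took both from one lysate. The libraries of DMSO dish 1 held the highest DMSO value for all 10 transporter genes in both assays. They exceeded the mean of the other two DMSO libraries by a median of 2.54-fold in input (1.90 to 3.26) and 2.81-fold in footprints (1.90 to 4.28), whereas the median over all tested genes was 0.991 and 0.996. The scaling itself holds that median of all genes close to equality. At least 1.5-fold more than each of the other two DMSO libraries, in both assays, was seen for all 10 transporter genes and for 3.66% of the tested genes. It was also seen for 6 of the 14 ERK output genes (42.9%), so this trait was not particular to the transporters. Changes of the 10 genes are therefore given with and without DMSO replicate 1, and its part in the differences between the treatments beyond those values was not tested.

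Together the 10 genes took 0.577%, 0.296% and 0.237% of the counts in the DMSO input libraries of replicates 1, 2 and 3, and 0.103%, 0.109% and 0.106% in those with trametinib. In footprints their shares were 0.799%, 0.423% and 0.291% with DMSO and 0.179%, 0.179% and 0.174% with trametinib. The shares of the 3 trametinib libraries lay close together in each assay and below every DMSO library, while the DMSO libraries were spread. As each library is scaled to itself, these shares are relative to all other counted mRNAs, and a change in total RNA per cell cannot be seen.

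The first comparison concerned the abundance of the transporter mRNAs under the MEK inhibitor. All 10 were lower in trametinib input at an edgeR adjusted p-value under 0.05, against 16.8% of tested genes that were called lower. Their log2 changes (trametinib over DMSO) ranged from -3.15 for SLC1A4 to -1.18 for SLC6A9 with a median of -1.89, beside a median of -0.0028 for all tested genes. The scaling itself holds the latter median near no change, here and in footprints. With library totals the medians were -1.88 and -0.011. Every trametinib library lay below every DMSO library for all 10, which held for 23.3% of tested genes. SLC1A4 and SLC43A1 reached the filter for input counts only through their DMSO libraries, where they were high. Their places in these counts are therefore no independent support. With DMSO replicate 1 left out, 8 of 10 remained lower with a median of -1.29, beside 1906 of 10502 tested genes that were lower. SLC6A9 and SLC43A1 were then no longer called.

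In footprints, 8 of 10 were lower, against 25.3% of tested genes. The changes ranged from -2.99 for SLC7A11 to -0.81 for SLC6A9, with a median of -1.79 beside -0.0033 for all tested genes, and SLC6A9 and SLC43A1 did not pass. With library totals the medians were -1.62 and 0.16. The same 8 genes had no overlap between DMSO and trametinib libraries, which held for 29.9% of tested genes. Leaving out DMSO replicate 1, these 8 were again lower, beside 3213 of 10502 tested genes, and the median of the 10 was -1.26.

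**Figure D1:**
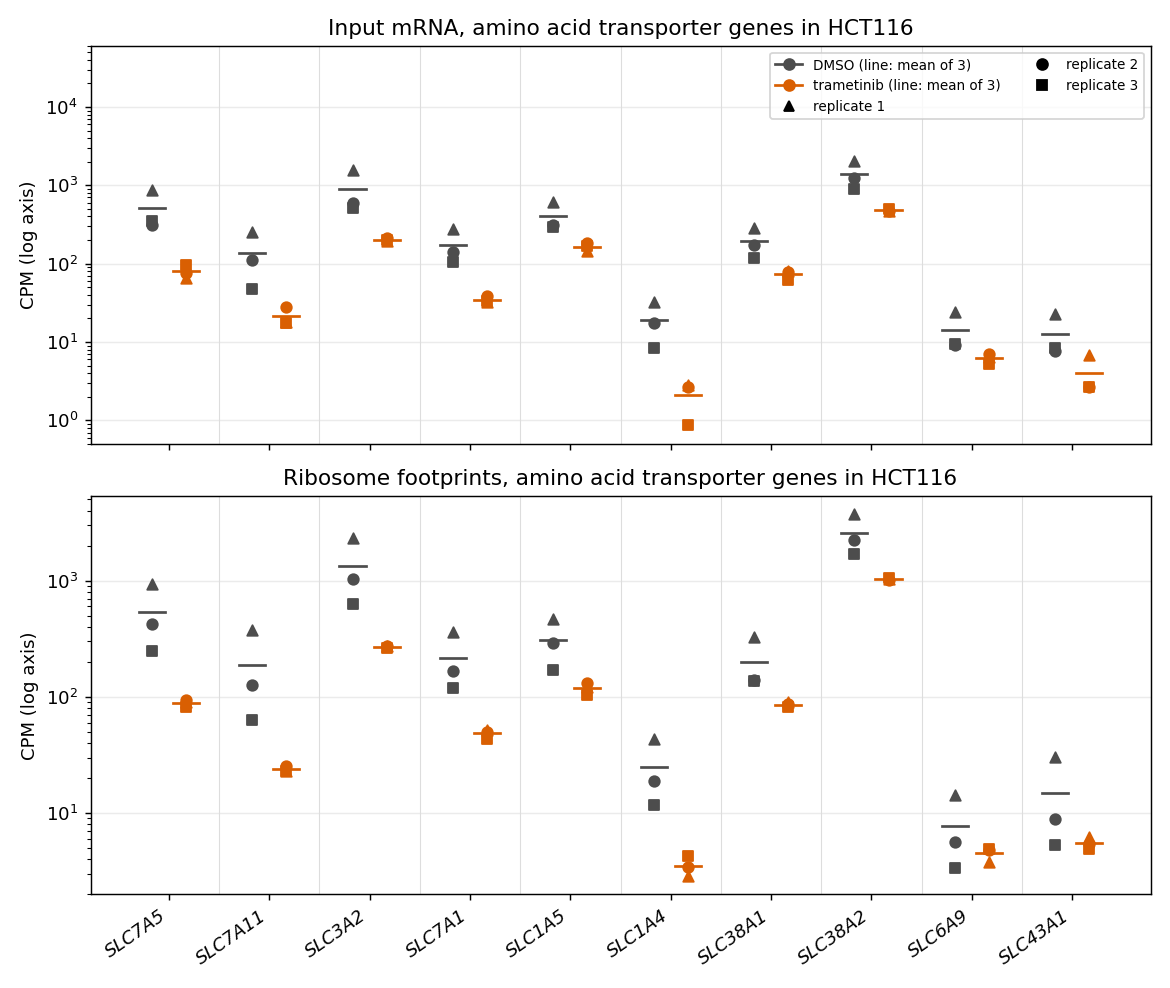
CPM (scaled counts, logarithmic axis) of the 10 transporter genes in each input library (upper panel) and footprint library (lower panel), with DMSO in grey, trametinib in orange, 1 symbol per replicate number and a line at the mean of 3. The grey triangle of DMSO replicate 1 is the highest point of each gene, and the 3 trametinib footprint libraries lie within 1.49-fold of each other for every gene.

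SLC3A2, the heavy chain also known as 4F2hc or CD98 (chromosome 11, 62856004 to 62888880, plus strand, GRCh38), with replicates always in the order 1, 2 and 3, was at 1583, 589 and 509.8 CPM in DMSO input and between 197 and 213 CPM in the 3 trametinib input libraries. In footprints it was at 2336, 1029 and 630.3 CPM with DMSO and at 273, 275 and 262 CPM with trametinib. The trametinib footprint libraries differed by no more than 1.05-fold, while DMSO replicate 1 was 3.71-fold above replicate 3. SLC3A2 fell by 2.14 on the log2 scale in input (standard error, SE, 0.34, edgeR adjusted p = 4.80e-04) and by 2.30 in footprints (SE 0.41, edgeR adjusted p = 0.00186). Without DMSO replicate 1 these changes were -1.44 and -1.62, and both were still called.

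SLC7A5 (chromosome 16, 87830023 to 87869507, minus strand) encodes LAT1, the light chain that exchanges large neutral amino acids such as leucine. It was at 879.7, 311 and 349 CPM in DMSO input against 66.1, 76.5 and 96.3 CPM with trametinib. Its footprints were at 942, 425 and 247 CPM with DMSO against 89.9, 93.5 and 82.0 CPM with trametinib. The lowest DMSO library was thus above 2-fold the highest trametinib library in both assays. The log2 changes were -2.69 in input (SE 0.35, edgeR adjusted p = 8.57e-05) and -2.60 in footprints (SE 0.42, edgeR adjusted p = 0.00109), and they were -2.05 and -1.93 without DMSO replicate 1.

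SLC7A11 (chromosome 4, 138164097 to 138242349, minus strand) encodes xCT, the light chain that imports cystine in exchange for glutamate. Its input was at 257, 110.1 and 47.3 CPM with DMSO and at 17.8, 28.1 and 17.6 CPM with trametinib. In footprints it was at 376, 126 and 62.5 CPM with DMSO and at 23.0, 25.1 and 23.2 CPM with trametinib. This gene had the widest spread among DMSO footprint libraries, 6.01-fold between replicates 1 and 3, and no overlap with trametinib. The change was -2.71 in input (SE 0.48, edgeR adjusted p = 0.00102) and -2.99 in footprints (SE 0.56, edgeR adjusted p = 0.00254). Leaving out DMSO replicate 1 moved it by 1.75-fold in input and 2.01-fold in footprints, to values that were still called (edgeR adjusted p = 4.88e-05 and 4.05e-06).

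The proportion of the light chains to the heavy chain was compared within each library, per kilobase of coding sequence. SLC7A5 footprints per kilobase were 0.421, 0.431 and 0.409 of those of SLC3A2 in DMSO libraries and 0.343, 0.355 and 0.327 in trametinib libraries. Here DMSO replicate 1 lay between the other two DMSO libraries, and the groups did not overlap. In input the same ratio was 0.615 ± 0.087 with DMSO and 0.409 ± 0.0815 with trametinib (SD, n = 3). For SLC7A11 over SLC3A2 the footprint ratio was 0.135 ± 0.0329 with DMSO and 0.0929 ± 0.00393 with trametinib. With 3 libraries against 3, the exact two-sided permutation test cannot give less than 0.1, and it gave 0.1 for these 3 ratios and 0.2 for SLC7A11 over SLC3A2 in input. After adjustment over the 8 ratios compared, including those of the pairs described next, these exact permutation p-values were 0.16 and 0.267.

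SLC1A5 (chromosome 19, 46774883 to 46788594, minus strand) encodes ASCT2, a sodium-dependent exchanger that takes up glutamine. Its input was at 609, 314 and 296 CPM with DMSO and at 146, 181 and 169 CPM with trametinib, and its footprints were at 469, 290.3 and 170.3 CPM against 122, 132 and 103 CPM. The groups did not overlap, although the lowest DMSO footprint library, at 170.3 CPM, came near the trametinib libraries. The changes were among the smaller ones, -1.30 in input (SE 0.24, edgeR adjusted p = 0.00155) and -1.38 in footprints (SE 0.31, edgeR adjusted p = 0.00607), or -0.89 and -0.95 without DMSO replicate 1 with both still called.

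SLC1A4 (chromosome 2, 64988477 to 65023865, plus strand) encodes ASCT1, the related exchanger of alanine, serine and cysteine. It was at 32.1, 17.4 and 8.34 CPM in DMSO input and at 2.84, 2.64 and 0.879 CPM with trametinib, where the libraries held 7, 6 and 2 counts. The footprint libraries were at 43.5, 18.9 and 11.8 CPM with DMSO and at 2.85, 3.44 and 4.26 CPM with trametinib. The groups were far apart in both assays, but the trametinib input level rests on few reads. Each trametinib input library held fewer than the 10 counts that the filter asked as a mean. The gene was thus tested only through its DMSO libraries, where it was high. SLC1A4 had the largest input decrease of the 10 genes at -3.15 (SE 0.54, edgeR adjusted p = 7.82e-04), and its footprints changed by -2.83 (SE 0.46, edgeR adjusted p = 0.00118). Both calls were kept at -2.58 and -2.12 without DMSO replicate 1. Per kilobase, SLC1A4 footprints were 0.0769 ± 0.0151 of those of SLC1A5 with DMSO and 0.0308 ± 0.00979 with trametinib (SD, n = 3 libraries, exact permutation p = 0.1 and 0.16 after adjustment), and in input the ratio was 0.0461 ± 0.0152 and 0.0133 ± 0.00733 with the same p-values from the exact test.

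SLC38A2 (chromosome 12, 46358188 to 46372773, minus strand) encodes SNAT2, a sodium-coupled carrier of alanine and glutamine that cells are known to induce when amino acids are scarce. It was at 2017, 1232 and 889 CPM in DMSO input and at 473, 464 and 494 CPM with trametinib. Its footprints were at 3716, 2225 and 1693 CPM with DMSO and at 1027, 1021 and 1053 CPM with trametinib. Trametinib footprint libraries differed by no more than 1.03-fold, the least of the 10 genes. The change was -1.53 in input (SE 0.24, edgeR adjusted p = 3.72e-04) and -1.30 in footprints (SE 0.26, edgeR adjusted p = 0.00319). Both calls were kept without DMSO replicate 1, at -1.15 and -0.93.

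SLC38A1 (chromosome 12, 46183063 to 46270017, minus strand) encodes the related carrier SNAT1. Its input was at 289, 171 and 119.5 CPM with DMSO and at 81.5, 78.7 and 62.4 CPM with trametinib, and its footprints were at 329, 139 and 135 CPM against 89.7, 86.0 and 81.2 CPM. Both assays separated the groups. SLC38A1 changed by -1.38 in input (SE 0.27, edgeR adjusted p = 0.00187) and by -1.23 in footprints (SE 0.32, edgeR adjusted p = 0.0113). Leaving out trametinib footprint replicate 3 ended the footprint call (-1.20, edgeR adjusted p = 0.0519), whereas it was kept at -0.69 without DMSO replicate 1. The ratio of SLC38A1 to SLC38A2 footprints per kilobase was 0.0800 ± 0.0138 with DMSO and 0.0861 ± 0.00548 with trametinib (SD, n = 3 libraries, exact permutation p = 0.7), and in input the exact test gave 0.4.

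SLC7A1 (chromosome 13, 29509414 to 29595688, minus strand) encodes CAT1, the importer of arginine and lysine. It was at 273, 139 and 106 CPM in DMSO input and at 32.9, 38.3 and 33.0 CPM with trametinib, and its footprints were at 358, 168 and 119.7 CPM against 52.2, 49.8 and 43.0 CPM. Each DMSO library was more than 2-fold above each trametinib library. The change was -2.32 in input (SE 0.30, edgeR adjusted p = 9.29e-05) and -2.15 in footprints (SE 0.36, edgeR adjusted p = 0.00127), or -1.83 and -1.57 without DMSO replicate 1.

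SLC6A9 (chromosome 1, 43991500 to 44031467, minus strand) encodes GLYT1, a sodium- and chloride-dependent carrier of glycine. Part of its coding sequence overlaps CCDC24 in the annotation, and reads common to both symbols were not counted. In input it was at 24.1, 9.06 and 9.53 CPM with DMSO and at 6.49, 7.04 and 5.27 CPM with trametinib, from 12 to 66 counts per library. Its footprints were at 14.3, 5.59 and 3.36 CPM with DMSO and at 3.79, 4.82 and 4.87 CPM with trametinib. DMSO replicate 3 lay below all 3 trametinib footprint libraries. The input change of -1.18 passed narrowly (SE 0.40, edgeR adjusted p = 0.0380), and the footprint value of -0.81 did not (SE 0.46, edgeR adjusted p = 0.175). Neither passed without DMSO replicate 1, at -0.56 in input (edgeR adjusted p = 0.195) and 0.047 in footprints (edgeR adjusted p = 0.881). The input call was also lost without any 1 of the 3 trametinib input libraries, with edgeR adjusted p-values of 0.0840 to 0.116, and the footprint call was gained without DMSO replicate 3 (-1.19, edgeR adjusted p = 0.0246).

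SLC43A1 (chromosome 11, 57484534 to 57515780, minus strand) encodes LAT3, which lets large neutral amino acids pass down their gradient and needs no heavy chain. It was at 22.6, 7.61 and 8.34 CPM in DMSO input and at 6.90, 2.64 and 2.64 CPM with trametinib, from 6 to 62 counts. Its footprints were at 30.4, 8.90 and 5.27 CPM with DMSO and at 6.25, 5.42 and 4.94 CPM with trametinib, so that DMSO replicate 3 lay among the trametinib libraries. Input changed by -1.64 (SE 0.50, edgeR adjusted p = 0.0246), and the footprint value of -1.43 did not pass (SE 0.56, edgeR adjusted p = 0.0607). Without DMSO replicate 1 the values were -0.94 (edgeR adjusted p = 0.0910) and -0.30 (edgeR adjusted p = 0.269). The input call was also lost without trametinib replicate 2 or 3 (edgeR adjusted p = 0.101 and 0.0917). The footprint call was gained without DMSO replicate 3 (-1.84, edgeR adjusted p = 0.00884) and with the replicate number as a block (-1.13, edgeR adjusted p = 0.0488).

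**Figure D2:**
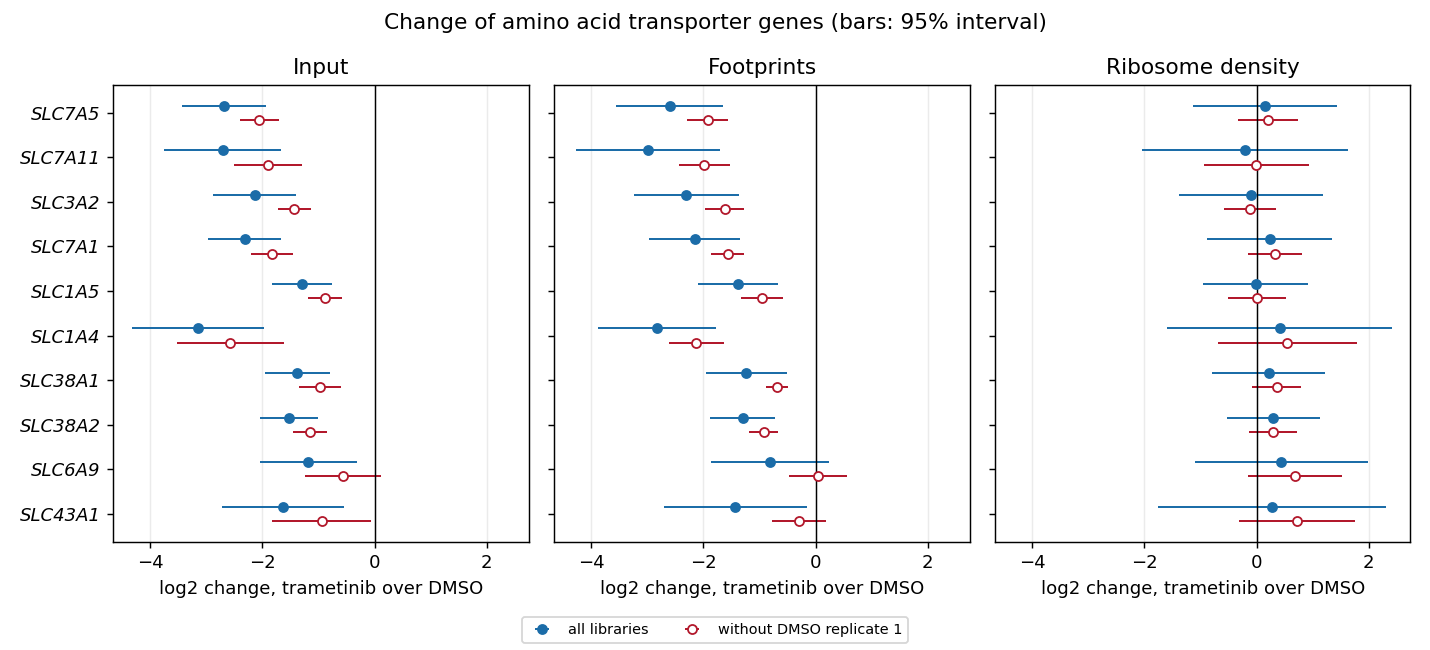
Log2 change (trametinib over DMSO) of the 10 transporter genes in input, footprints and ribosome density, with the edgeR estimate from all libraries (filled) and without DMSO replicate 1 (open, both libraries of that dish for density) and bars for 95% intervals. All input and footprint estimates from all libraries lie below 0, those without DMSO replicate 1 lie closer to 0, and every density interval from all libraries includes 0.

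Ribosome density relates the footprints to the input of the same gene. It addressed whether translation of the transporter mRNAs changed beyond their abundance, relative to that of other mRNAs. Both assays are scaled to all counted mRNAs, so a fall in translation common to all of them cannot be seen here. The study reported such a general fall for this line under the inhibitor, from polysome profiles and puromycin incorporation. None of the 10 transporter genes was called in density by edgeR, while 0.924% of tested genes were called. Of the 10, 0 had an unadjusted edgeR p-value under 0.05, against 8.88% of tested genes. DESeq2 and limma called 0 of the 10 as well. The density changes ranged from -0.21 for SLC7A11 to 0.44 for SLC6A9, 3 below 0 and 7 above 0, with a median of 0.22 beside 0.070 for all tested genes. In this fit the 95% intervals were wide, from -0.96 to 0.92 for SLC1A5, from -1.13 to 1.44 for SLC7A5 and from -2.04 to 1.62 for SLC7A11. A fit in which input and footprints of one lysate were paired, by 1 term per dish, called 31 genes higher and 128 lower in place of 10 and 87, and 0 of the 10 transporter genes were among them. The intervals were then narrower, from -0.37 to 0.41 for SLC1A5, from -0.27 to 0.69 for SLC7A5 and from -0.58 to 0.30 for SLC7A11. That of SLC3A2 was from -0.42 to 0.25, and the widest, that of SLC1A4, was still from -0.53 to 1.35.

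SLC38A2 was the 1 transporter gene whose dishes did not overlap in density. Its log2 ratio of footprint to input CPM was 0.88, 0.85 and 0.93 in DMSO dishes and 1.12, 1.14 and 1.09 in trametinib dishes, with all trametinib dishes above all DMSO dishes, as in 8.06% of tested genes, while 8.95% had the opposite order. Its density change was 0.30 (95% interval -0.53 to 1.13, edgeR adjusted p = 0.932), and with a term for each dish 0.29 (95% interval -0.0044 to 0.59, unadjusted p = 0.0531, edgeR adjusted p = 0.400). This difference thus did not pass a test over all genes. DMSO dish 1, far above the other two in both assays, was not set apart in the density of SLC38A2, since its ratio lay between theirs.

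Across the 10 genes the density in DMSO differed more than it did between treatments for any 1 of them. SLC38A2 had the highest mean log2 ratio at 0.89 ± 0.04 (SD, n = 3 dishes), above 85.3% of tested genes, followed by SLC3A2 at 0.56 ± 0.25. SLC1A5 was at -0.43 ± 0.34, and SLC6A9 was lowest at -0.98 ± 0.45, with 18.0% of tested genes below it. For SLC1A4 with trametinib the dishes were at 0.0065, 0.38 and 2.28, the last from the input library with 2 counts.

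**Figure D3:**
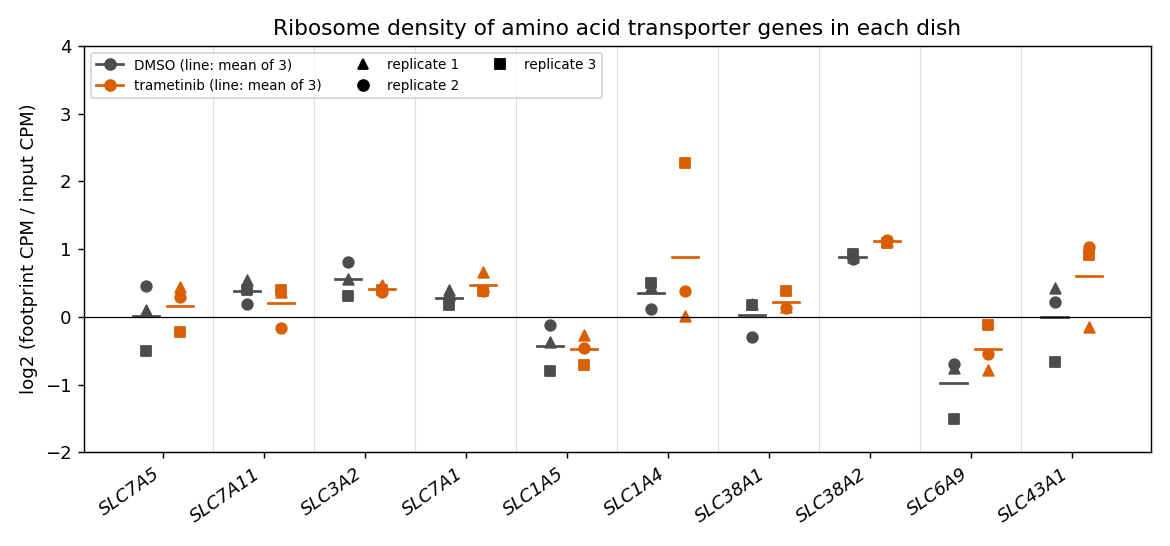
Log2 ratio of footprint CPM to input CPM of the 10 transporter genes in each dish, with DMSO in grey, trametinib in orange, 1 symbol per replicate number and a line at the mean of 3 dishes. The dishes of the 2 treatments overlap for every gene but SLC38A2, and the dish of SLC1A4 at 2.28 comes from an input library with 2 counts.

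Levels between genes were compared per kilobase of coding sequence. In DMSO footprints SLC38A2 was the highest of the 10 at 1676 ± 691 CPM per kilobase (SD, n = 3), 48.4% of their sum, followed by SLC3A2 at 839 ± 562, SLC7A5 at 354 ± 237 and SLC1A5 at 191 ± 92.7. Next came SLC38A1 at 138 ± 75.8, SLC7A11 at 125 ± 110.1 and SLC7A1 at 114 ± 66.7 CPM per kilobase. SLC1A4 at 15.5 ± 10.4, SLC43A1 at 8.85 ± 8.08 and SLC6A9 at 4.08 ± 3.04 were far lower. Ranges over libraries overlapped between all neighbours in this order but SLC7A1 and SLC1A4. Within single libraries, SLC38A2 was above SLC3A2, SLC3A2 above SLC7A5 and SLC7A5 above SLC1A5 in 3 of 3, while SLC7A11 was above SLC7A1 in 1 of 3.

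With trametinib the footprint order changed among the middle genes. SLC38A2 stayed first at 681 ± 11.2 CPM per kilobase, now 62.5% of the sum, before SLC3A2 at 170.1 ± 4.31 and SLC1A5 at 73.3 ± 8.92. SLC38A1 at 58.6 ± 2.93 and SLC7A5 at 58.2 ± 3.85 overlapped, so that SLC7A5, above SLC1A5 in every DMSO library, was below it with trametinib. SLC7A1 at 25.6 ± 2.54 and SLC7A11 at 15.8 ± 0.785 were next and did not overlap, and SLC43A1 at 3.30 ± 0.393, SLC6A9 at 2.37 ± 0.322 and SLC1A4 at 2.20 ± 0.443 came last, with only SLC6A9 and SLC1A4 overlapping. Input gave SLC38A2, SLC3A2, SLC7A5 and SLC1A5 as the first 4 in DMSO, at 909 ± 381, 563 ± 377, 337 ± 209 and 250.5 ± 108 CPM per kilobase. In trametinib input SLC1A5, at 102 ± 10.9, stood above SLC7A5, at 52.4 ± 10.1, with no overlap.

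The other carriers of amino acids were counted in the same way. Of 42 further amino acid transporter genes listed, 37 were in the table and 20 were tested. In input 5 were higher and 0 lower (15.4% and 16.8% of tested genes), with a median log2 change of 0.015, and 7 of the 20 had an unadjusted p-value under 0.05, against 43.0% of tested genes. In footprints 6 were higher and 3 lower (24.3% and 25.3% of tested genes), with a median of 0.0019. With scaling by library totals 6 were higher and 2 lower, beside 3521 and 1937 of 10502 tested genes. In density 0 were called by edgeR in either direction, and 0 had an unadjusted p-value under 0.05. Without DMSO replicate 1, 5 were higher and 2 lower in input, beside 1739 and 1906 of 10502 tested genes. In footprints 6 were then higher and 6 lower, beside 3141 and 3213 of the tested genes, which are near the same shares. None of the 20 was at least 1.5-fold higher in DMSO replicate 1 than in both other DMSO libraries in both assays, and the median ratio of that dish was 0.742 in input and 0.891 in footprints.

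SLC6A20, a carrier of proline, had the largest footprint change of these at 3.88 (SE 0.21, edgeR adjusted p = 2.33e-06). Its footprints were at 1.18, 1.24 and 0.753 CPM with DMSO and at 15.8, 16.1 and 14.1 CPM with trametinib. The DMSO input libraries of SLC6A20 held 2 to 9 counts, so that it passed the filter only through its trametinib libraries. SLC7A8, which encodes LAT2, another light chain of SLC3A2, rose from 5.94, 4.24 and 4.46 to 18.3, 20.4 and 16.3 footprint CPM, a change of 1.90 (edgeR adjusted p = 5.94e-05). LAT1 and LAT2 both pair with the heavy chain, and their mRNAs moved in opposite directions. SLC43A2, the relative of SLC43A1 that encodes LAT4, rose by 1.15 in footprints (edgeR adjusted p = 2.94e-04), from 19.2 to 22.0 CPM with DMSO to 40.8 to 54.8 CPM with trametinib. SLC7A6, a further light chain of SLC3A2, fell by 1.14 (edgeR adjusted p = 0.00544), from 7.59, 12.8 and 14.8 to 4.97, 6.01 and 4.94 CPM. In SLC7A6 the DMSO replicate 1 was the lowest of the DMSO libraries. Footprint changes of SLC6A20, SLC7A8, SLC43A2 and SLC7A6 were 4.02, 2.06, 1.17 and -1.40 without it, all still called.

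ATF4 and 36 genes other than transporters that are known as its targets were listed, of which 33 were tested. In input 28 of the 33 were lower (16.8% of tested genes) with a median of -1.49, and in footprints 29 were lower (25.3% of tested genes) with a median of -1.85. Leaving out DMSO replicate 1, 23 were lower in input with a median of -1.01, and in footprints 29 were lower and 1 was higher with a median of -1.10. Of 10502 tested genes, 1906 were then lower in input, and in footprints 3213 were lower and 3141 higher. The dish difference was also present here: 27 of the 33 (81.8%) were at least 1.5-fold higher in DMSO replicate 1 than in both other DMSO libraries in both assays. The footprint changes largest in size were those of CHAC1, DDIT3, TRIB3 and STC2 at -5.29, -5.11, -4.55 and -3.55 (edgeR adjusted p = 4.59e-05, 1.40e-04, 0.00141 and 4.29e-04). They were -4.73, -4.37, -3.29 and -2.76 without DMSO replicate 1, all still called. CHAC1 degrades glutathione, DDIT3 and TRIB3 are stress response regulators, and STC2 is a secreted glycoprotein.

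ATF4 itself, which cells translate through upstream reading frames, was at 507, 257 and 118 footprint CPM with DMSO and at 32.3, 33.0 and 28.5 CPM with trametinib. Its input was at 1141, 755 and 640.5 CPM against 269, 348 and 300.2 CPM. The footprint change of -3.23 (SE 0.45, edgeR adjusted p = 5.38e-04) was larger in size than the input change of -1.47 (SE 0.20, edgeR adjusted p = 1.64e-04). These were -2.58 and -1.19 without DMSO replicate 1. Its density value of -1.69 (edgeR unadjusted p = 0.00537) did not pass over all genes (edgeR adjusted p = 0.235). It did without the dish of DMSO replicate 1 (-1.31, edgeR adjusted p = 0.0313). That fit was not planned, and the dish was picked out by values of these same data, so its call is no independent support. No transporter gene was called in density in either fit.

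**Figure D4:**
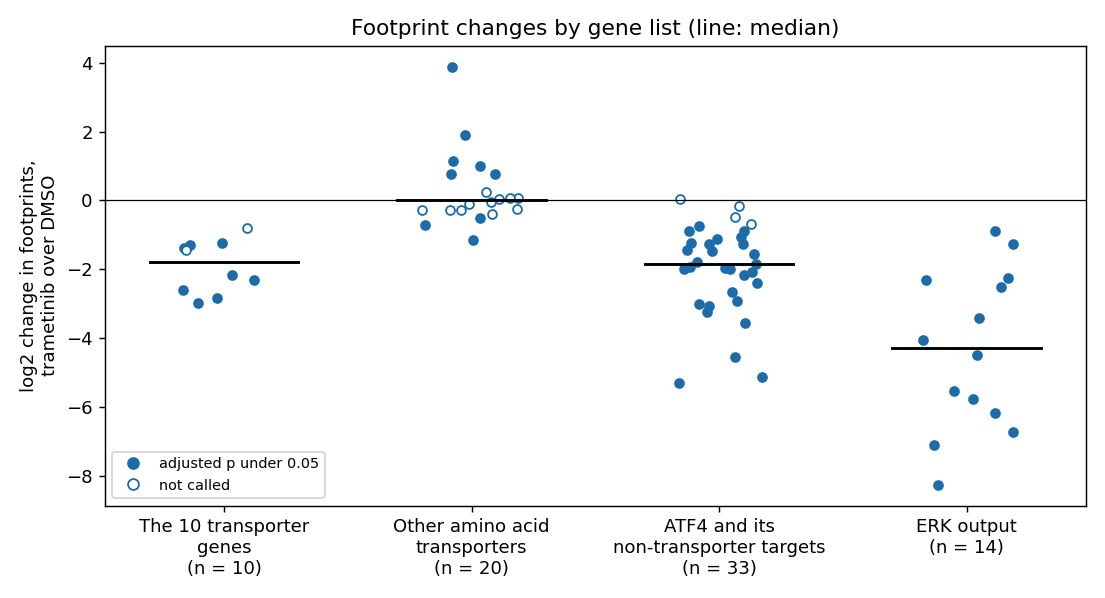
Log2 footprint change (trametinib over DMSO, edgeR) of each tested gene of 4 lists, filled where the adjusted p-value was under 0.05, with a line at the median of each list. The 10 transporter genes have a median of -1.79 and ATF4 with its non-transporter targets one of -1.85 (-1.26 and -1.10 without DMSO replicate 1, not drawn), while the 20 other amino acid transporters are spread on both sides of a median of 0.0019.

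Glutathione synthesis and cystine use, the pathway that SLC7A11 feeds, was covered by 9 listed genes, of which 8 were tested. In input 1 was higher and 3 were lower, beside 15.4% and 16.8% of tested genes. In footprints 0 were higher and 2 were lower, the latter a share near the 25.3% of tested genes that were lower there. The lower ones in footprints were CHAC1, which is also in the list of ATF4 targets, and GSS, glutathione synthetase, at -0.64 (edgeR adjusted p = 0.00433). Without DMSO replicate 1, 4 were higher and 3 lower in footprints, beside 3141 and 3213 of 10502 tested genes. For 2 of the 8 (25%) DMSO replicate 1 was at least 1.5-fold above both other DMSO libraries in both assays, against 3.66% of tested genes.

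The genes most like the transporters were sought over the 12 libraries by Pearson's r with the mean profile of the 10 genes, centred within each assay. These libraries share treatment and dishes, so that r is a description. Among 4786 genes with a mean of at least 100 counts in both assays, AARS1 (r = 0.993), GPT2 (0.991), TUBE1 (0.990), CARS1 (0.988) and GARS1 (0.988) were the nearest. AARS1, CARS1 and GARS1 are the cytosolic alanyl-, cysteinyl- and glycyl-tRNA synthetases, and GPT2 is a mitochondrial alanine transaminase. TUBE1 encodes a tubulin and was the 1 gene of these that no list here held. The 10 transporter genes themselves had r of 0.896 (SLC6A9) to 0.993 (SLC3A2) with that profile, of which each is a part.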

How the data were processed

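Input and footprint RNA of HCT116 cells were sequenced by the authors from 3 DMSO and 3 trametinib dishes. The authors removed rRNA and tRNA reads with Bowtie (1.2.2 per the labels), mapped the others to Gencode transcripts and counted reads in open reading frames of 1 symbol alone. The deposited table holds raw counts per gene, a normalized signal (counts that the authors scaled with 1 size factor for each library) that was only inspected, and the authors' fold changes and p-values of their own comparisons, made with DESeq2 (1.46.0), which were not used. All 12 raw count columns were used.

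Groups came from the labels. Whether replicates were separate cultures is given only as dishes, so p-values measure the spread between these libraries. No pair of replicates agreed within sampling noise (chi-square per degree of freedom at least 3.55).

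Counts were tested with edgeR 4.0.16 (quasi-likelihood F-test, R 4.3.3) on 10502 genes with a mean of at least 10 counts in each assay, scaled by TMM. That mean was taken over both treatments, so a gene could pass through its higher group alone. In input this was so for SLC1A4, SLC43A1, SLC6A20, DUSP6, SPRY4, ETV5 and CHAC1 among the genes named. Input and footprints were each fitted over 6 libraries, and ribosome density was the interaction of assay and treatment over 12. P-values were two-sided and adjusted by the Benjamini-Hochberg method over all tested genes, with 0.05 as threshold. Standard errors were taken as the change over the root of F. CPM values are scaled by TMM within each assay. Alternatives were DESeq2 1.42.0, limma 3.58.1, other scalings and filters, replicate blocks and left-out libraries. The fits were tested on simulated counts with the same spread for every gene and no differences between dishes. Such simulations cannot show how the fits behave with a dish like DMSO dish 1. A shift common to all mRNAs cannot be seen.

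Dishes pair input with footprints, since both came from one lysate; deviations of such library pairs correlated at 0.856, 0.195 and 0.364 in DMSO and 0.165, 0.0860 and -0.158 in trametinib (Pearson's r over 4793 genes). DMSO and trametinib footprint libraries of equal number correlated at 0.132, 0.128 and 0.313, and the block of replicate number is given where it changed a call.

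Coordinates and coding lengths are from Gencode release 44 (GRCh38), and promoters are from RefSeq. Coding length of the canonical transcript replaced the planned protein length. The 10 genes and all lists were chosen with earlier results of these data known. Named were all 10 genes, from each list up to 4 called genes with the largest footprint change, ATF4, and the 5 genes of most similar profile.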

Additional observations from a re-analysis of the deposited data

How the results depend on the processing

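With library totals, the DMSO levels of the 10 transporter genes moved by less than their SD over libraries. That SD was wide, so this is a weak check. Of the changes, 262 of 270 kept direction and call under alternatives that kept all libraries or left out the dish of DMSO replicate 1. Leaving out 1 library kept 206 of 240, with 7 to 10 of the transporter genes lower in footprints and 8 to 10 in input. Of 10502 tested genes, 1938 to 3213 were then lower in footprints and 1205 to 1906 in input. By limma 9 were lower in input, beside 1738 of 10502, as SLC6A9 was at -0.96 (adjusted p = 0.0501). With no filter, 9 were lower in footprints, beside 2965 of 15406 genes. SLC1A5 density, at -0.016, turned to 0.017 by limma, 0.081 with library totals, 0.016 with the replicate block for each dish and 0.0036 without the DMSO 1 dish. Leaving out 1 library gave SLC6A9 footprints of -1.19 to 0.047, and density changes of -0.48 to 0.84 for SLC7A5, -1.02 to 0.80 for SLC7A11, -0.80 to 0.59 for SLC3A2, -0.26 to 0.82 for SLC7A1, -0.43 to 0.42 for SLC1A5, -0.17 to 1.12 for SLC1A4, -0.19 to 0.77 for SLC38A1, -0.079 to 0.68 for SLC38A2, -0.18 to 1.30 for SLC6A9 and -0.41 to 1.41 for SLC43A1. None of these density changes was called. Leaving out 1 library separates an input from its footprints. The value of -0.48 for SLC7A5 came without DMSO input replicate 1. Those of 0.80 for SLC7A11 and 0.59 for SLC3A2 came without DMSO footprint replicate 1. Without both libraries of that dish, SLC7A5, SLC7A11 and SLC3A2 were at 0.20, -0.0035 and -0.11. Over all genes, those higher in density numbered 10, but 37 by DESeq2 (with 150 lower), 5 with median-of-ratios scaling, 27 with library totals, 29 at an adjusted p under 0.1, 31 with the replicate block for each dish, 4 with TMM within each assay, 24 without the DMSO 1 dish, and 1 to 12 with 1 library left out. Genes higher in input numbered 1051 to 1739 with 1 library left out. With the block of replicate number, 10 transporter genes were lower in input, 9 in footprints and 0 in density, and genes higher and lower numbered 1941 and 2026 in input, 2581 and 2636 in footprints, and 11 and 91 in density. In input the numbers pair the samples less clearly (r = 0.0896, 0.0591 and 0.417). Library totals moved the median of all genes in footprints to 0.16 and in density to 0.18, with 3521 genes higher and 1937 lower in footprints in place of 2550 and 2658, and 8 transporter genes were lower still. The cause of these differences was not tested. Low input counts limit SLC1A4, SLC6A9 and SLC43A1.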
